A study of Mus musculus with 28 samples.

Results

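The H3K9 demethylase genes Kdm3a, Kdm3b, Jmjd1c, Kdm1a, Kdm4a, Kdm4b, Kdm4c, Kdm7a, Phf8 and Phf2 were followed through the amygdala of female mice that drank water or alcohol. These 10 genes were picked by symbol from the 49477 genes present in the count tables of both batches, and all of them passed the filter that left 16266 genes for testing. Kdm3a was chosen because its level was lower in drinking mice than in water-drinking mice, so its values in the comparisons with Water are a description without a test. The other 9 genes were listed for their enzymatic family.

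All mice were adult females of the strain C57BL/6J (labelled C57BL6/J), kept singly in their cages, with water and food at all times. The Water group (10 mice) never had alcohol, the Acute group (9 mice) had 1 access to 20% alcohol at the end of a month on water, and the Chronic group (9 mice) chose between 20% alcohol and water every other day for a month. Tissue was taken on the morning after the last access began, with the tubes still on the cages, as bilateral punches aimed at the whole amygdala with its basolateral and central parts, and total RNA was sequenced after mRNA enrichment and removal of rRNA. The mice came in 2 batches, with 4 Water, 4 Acute and 3 Chronic animals in the first and 6, 5 and 6 in the second. Each library is 1 mouse.

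Methylation of lysine 9 on histone H3 is a mark of silent chromatin, laid down by methyltransferases and read by HP1 proteins. Most enzymes that remove it carry a Jumonji domain, which needs iron, oxygen and 2-oxoglutarate, while Kdm1a is an amine oxidase that uses FAD. In neurons these enzymes are known for roles in development and in activity-dependent transcription, and Kdm3a is also a well known target gene of the hypoxia-inducible factors.

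Promoter sequence was taken from RefSeq (GRCm38.p6), with 12 start sites of 8 of the 10 genes used here, those other than Kdm3b and Kdm4b. The stretches upstream of Kdm3a and Kdm7a are shown because these genes had the lowest log2 fold changes of the 10 and, with batch means removed, the highest correlation of any pair over the 28 mice (with group means removed too, other pairs were higher). They run to the first annotated GENCODE M21 exon base, on the minus strand of chromosome 6, at chr6:71632991-71633167 for Kdm3a and chr6:39206790-39207023 for Kdm7a. Capitals mark CCAAT boxes (CCAAT, or ATTGG on the other strand) and GC boxes (GGGCGG, or CCGCCC on the other strand).
Kdm3a: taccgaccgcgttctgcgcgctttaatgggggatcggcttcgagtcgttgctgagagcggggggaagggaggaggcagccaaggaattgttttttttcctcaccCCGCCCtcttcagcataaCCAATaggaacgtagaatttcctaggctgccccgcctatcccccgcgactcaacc
Kdm7a: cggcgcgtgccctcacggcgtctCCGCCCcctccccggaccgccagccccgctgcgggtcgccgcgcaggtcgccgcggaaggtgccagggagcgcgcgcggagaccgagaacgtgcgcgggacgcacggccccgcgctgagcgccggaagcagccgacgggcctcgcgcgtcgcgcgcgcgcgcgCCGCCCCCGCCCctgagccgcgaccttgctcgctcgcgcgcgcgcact
The Kdm3a stretch of 177 bases has 1 CCAAT box, 1 GC box and a GC content of 57.6%. It leaves out the last 73 bases of a window of 250, and that whole window has 2 CCAAT boxes and 2 GC boxes. The Kdm7a stretch of 234 bases has 3 GC boxes, no CCAAT box and a GC content of 82.1%, and it holds 1 match to ACGTG or CACGT, the core of a hypoxia response element. In windows of 250 bases before the start sites, a CCAAT box was present for 4 of the 8 genes and in 33.9% of all 32851 windows, a GC box for 5 of 8 and in 32.7%, the hypoxia core for 3 of 8 and in 16.6%, and a TATA box (TATAAA or TTTATA) for 0 of 8 and in 12.4%. A gene with several start sites counts once if any of them holds the motif, so its chance of a match is above that of 1 window. The hypoxia core was in windows of Kdm4c, Kdm7a and Phf8 and in no window of Kdm3a. A match describes letters only.

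Total counts ranged from 20004380 to 22569562 per mouse, and the means of the 10 genes ranged from 523.6 counts (Kdm4c) to 1336 counts (Jmjd1c). With batch means removed, total counts were 703700 higher in Chronic than in Water mice (2-sided exact permutation test within batches, p = 0.0021, adjusted p = 0.018 over 12 technical comparisons). The slope of log2 CPM on gene GC content was also 0.0443 higher per 10 percentage points in Chronic mice (exact permutation p = 0.0030, adjusted p = 0.018). In the Acute mice the slope on transcript length differed from Water by -0.0268 per doubling of length (exact permutation p = 0.0259, adjusted p = 0.104), and no difference in the share of mitochondrial counts passed the threshold in the 3 comparisons (lowest exact permutation p = 0.348). None of 10 marker lists, for neurons, astrocytes, microglia, OPC, oligodendrocytes, endothelial cells, choroid plexus and ependyma, striatum, central amygdala and basolateral amygdala, differed between groups in 30 comparisons by adjusted p. The nearest were the central amygdala list (6 of 6 genes measured), 0.24 log2 higher in Acute than in Water mice, from -0.23 to 0.44 against -0.46 to 0.12 (exact permutation p = 0.0281, adjusted p = 0.548), and the neuron list (10 of 10 genes), 0.05 log2 higher (exact permutation p = 0.0476, adjusted p = 0.548). The striatum list (8 of 8 genes) had the same adjusted p, at -0.37 log2 in Chronic against Acute mice (exact permutation p = 0.0548, adjusted p = 0.548). The list for choroid plexus and ependyma and that for striatum varied most between mice (SD 1.55 and 0.56 log2, batch means removed). For them the lack of a call says little. The part of these marker lists in the results on the demethylases was not tested. In bulk tissue, fewer cells that express a gene and less RNA per cell cannot be told apart.

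The Kdm3 family comes first. Kdm3a and Kdm3b remove mono- and dimethyl marks from H3K9, and Jmjd1c is their close relative. Values are given in CPM, the deposited counts scaled to the TMM-normalised library size.

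Kdm3a (ENSMUSG00000053470, chromosome 6, 71588972 to 71632990, minus strand, GRCm38) was lower in the drinking groups, the difference for which it was chosen. In the first batch the Water mice had 36.0, 37.7, 41.0 and 41.1 CPM, the Acute mice 35.2, 36.1, 36.7 and 38.1 CPM, and the Chronic mice 34.2, 35.8 and 36.1 CPM. In the second batch the 6 Water mice ran from 38.0 to 41.0 CPM with a median of 39.7, the Acute mice had 31.8, 33.4, 34.1, 35.2 and 37.4 CPM, and the 6 Chronic mice ran from 30.3 to 36.0 CPM with a median of 32.6. The groups overlapped in the first batch, whereas in the second batch every Acute and Chronic mouse was below the lowest Water mouse. Of all 16266 genes, 0.215% were separated in this way in Acute and 0.387% in Chronic mice of that batch. Kdm3a was chosen for this fall, so its separation is no support for it. Over both batches all 9 Acute and all 9 Chronic mice were below the batch's Water mean, counted on the log2 CPM scale here and for the other genes. The log2 fold change was -0.16 ± 0.036 (SE) in Acute mice, a level 10.4% lower, and -0.23 ± 0.036 in Chronic mice, a level 14.5% lower. Taken by batch, the Acute value was -0.09 in the first and -0.20 in the second, and the Chronic value was -0.14 and -0.28.

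The tests below are not the comparisons that chose Kdm3a, but they draw on the same mice. The batch comparison splits the same differences from Water, so neither test is free of that choice. Chronic mice differed from Acute mice by -0.07 log2 (SE 0.037, 95% interval -0.14 to 0.01, n = 9 and 9), which did not pass the threshold (edgeR quasi-likelihood test, unadjusted p = 0.078, adjusted p = 0.998). The difference between batches in the Kdm3a effect was -0.11 ± 0.070 log2 for Acute mice (edgeR, adjusted p = 0.999) and -0.14 ± 0.072 for Chronic mice (unadjusted p = 0.0638, adjusted p = 0.829), with the second batch lower in both. Of the 10 genes, 0 passed the threshold in either interaction, where 0% and 0.00615% of all 16266 genes did, and 0 reached an unadjusted p under 0.05, against 4.13% and 6.15% of all genes.

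**Figure D1:**
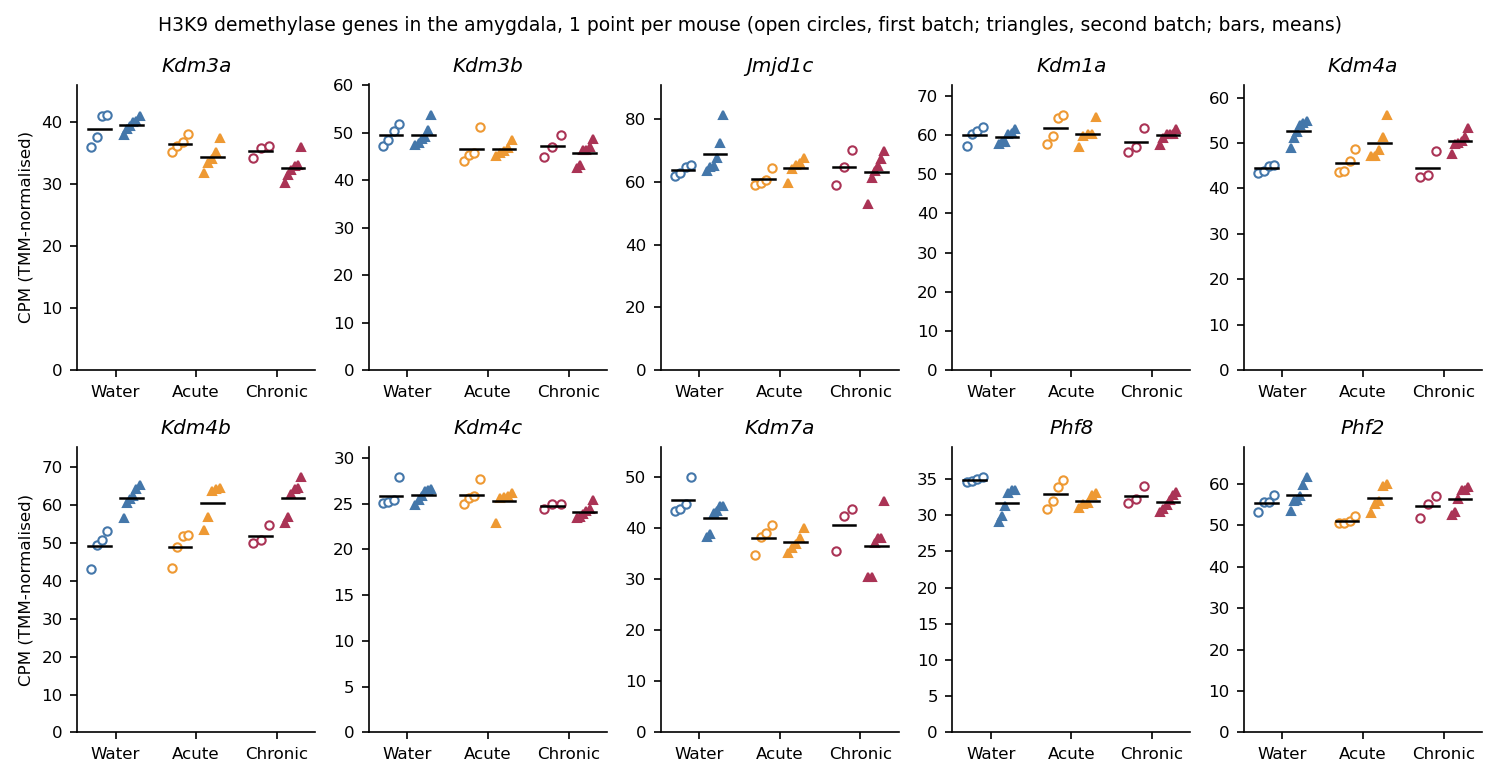
Level of the 10 H3K9 demethylase genes in CPM (y axis, from 0) in each Water, Acute and Chronic mouse, with open circles for the first batch, triangles for the second and bars for the mean of a group within a batch. In Kdm3a, chosen for its fall, the second batch's Acute and Chronic mice lie between 30.3 and 37.4 CPM. All are under its Water mice, at 38.0 to 41.0 CPM, as for 0.215% of all genes in Acute and 0.387% in Chronic mice. Kdm4b and Kdm4a show the batch step in every group.

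Kdm3b (ENSMUSG00000038773, chromosome 18), the nearest relative of Kdm3a, had 47.3, 48.5, 50.5 and 51.8 CPM in the first batch's Water mice, 44.1, 45.3, 45.9 and 51.3 CPM in its Acute mice, and 44.8, 47.1 and 49.5 CPM in its Chronic mice. In the second batch the Water mice ran from 47.3 to 53.7 CPM (median 48.9), the Acute mice from 45.2 to 48.4 CPM and the Chronic mice from 42.5 to 48.8 CPM (median 46.4). The groups overlapped in both batches, although 8 of 9 mice of each drinking group were below the Water mean of their batch on the log2 scale, with the highest Chronic mouse of the first batch, at 49.5 CPM, level with its Water mean of 49.5 CPM. The log2 fold change was -0.09 ± 0.033 (SE, 95% interval -0.16 to -0.02) in Acute mice and -0.10 ± 0.033 (-0.17 to -0.03) in Chronic mice. Neither passed the threshold after adjustment over all genes (edgeR, unadjusted p = 0.0102 and adjusted p = 0.447 for Acute, 0.0050 and 0.260 for Chronic). In the first and second batch the Acute value was -0.09 and -0.09, and the Chronic value -0.07 and -0.12. Kdm3b overlaps the exons of a long noncoding gene on the opposite strand, Gm26538, and whether the counting used strand is not given in the sources used here.

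Jmjd1c (ENSMUSG00000037876, chromosome 10, 67096125 to 67256326) ran from 61.9 to 81.3 CPM in Water mice (median 64.9), from 59.1 to 67.7 CPM in Acute mice (median 64.2) and from 52.9 to 70.3 CPM in Chronic mice (median 64.9). The groups overlapped over most of their range, and the highest value was that of 1 Water mouse of the second batch. The log2 fold changes were -0.09 ± 0.048 and -0.07 ± 0.048 (edgeR, adjusted p = 0.588 and 0.627), and without that Water mouse they were -0.05 and -0.04. Within the first batch the Chronic difference was 0.02.

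Kdm1a (LSD1, ENSMUSG00000036940, chromosome 4), which removes methyl groups from H3K4 within the CoREST complex and from H3K9 with some partners, had near-equal medians in the groups. They were 60.3 CPM in Water, 60.3 CPM in Acute and 60.4 CPM in Chronic mice, and the values of all 28 mice lay between 55.7 and 65.1 CPM. The log2 fold changes of 0.03 (95% interval -0.03 to 0.09) and -0.01 (-0.07 to 0.05) did not pass the threshold (edgeR, adjusted p = 0.745 and 0.947). Kdm1a was the only one of the 10 with a value above 0 in Acute mice.

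The Kdm4 enzymes act on trimethylated H3K9 and H3K36. Kdm4c (ENSMUSG00000028397, chromosome 4, 74242497 to 74405860) had 25.1, 25.2, 25.3 and 27.9 CPM in the first batch's Water mice and 24.4, 24.9 and 24.9 CPM in its Chronic mice. In the second batch the Water mice ran from 24.8 to 26.6 CPM (median 26.1) and the Chronic mice from 23.4 to 25.3 CPM (median 24.0). All 9 Chronic mice were below their batch's Water mean, with no overlap in the first batch and overlap in the second. The log2 fold change was -0.09 ± 0.030 (95% interval -0.15 to -0.03, edgeR, unadjusted p = 0.0064, adjusted p = 0.272). In Acute mice it was -0.02 ± 0.030 (adjusted p = 0.876), with values from 22.9 to 27.7 CPM. The Chronic mice differed from the Acute mice by -0.07 ± 0.031 (unadjusted p = 0.0328, adjusted p = 0.998), which did not pass the threshold either.

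Kdm4a (ENSMUSG00000033326, chromosome 4) and Kdm4b (ENSMUSG00000024201, chromosome 17) differed more between batches than between drinking groups. In Water mice Kdm4b averaged 49.2 ± 4.2 CPM (SD, n = 4) in the first and 61.8 ± 3.1 CPM (n = 6) in the second batch, a log2 difference of 0.33, and Kdm4a averaged 44.4 ± 0.86 and 52.6 ± 2.3 CPM, a difference of 0.24. Their log2 fold changes in Acute mice were -0.02 and -0.03 for Kdm4b and Kdm4a (edgeR, adjusted p = 0.925 and 0.850). In Chronic mice they were 0.03 and -0.03 (adjusted p = 0.876 and 0.769), with 95% intervals from -0.07 to 0.12 and from -0.11 to 0.04. Of the 10 genes only Kdm4b had a value above 0 in Chronic mice, and it was -0.00435 with offsets for GC content and length.

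Kdm7a, Phf8 and Phf2 join a Jumonji domain to a PHD finger that binds methylated H3K4. Kdm7a and Phf8 act on dimethylated H3K9 among other sites, and Phf2 on dimethylated H3K9. Kdm7a (ENSMUSG00000042599, chromosome 6, 39136623 to 39206789, minus strand) had log2 fold changes near those of Kdm3a, lower in Acute and higher in Chronic mice. Neither order was stable. The Acute order turned with GC and length offsets (-0.13 for Kdm7a, -0.14 for Kdm3a) and in the second batch alone (-0.17 and -0.20). The Chronic order turned in the first batch alone (-0.16 for Kdm7a, -0.14 for Kdm3a).

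In the first batch Kdm7a had 43.5, 43.8, 44.8 and 49.99 CPM in Water mice, 34.7, 38.2, 39.0 and 40.7 CPM in Acute mice, and 35.6, 42.4 and 43.8 CPM in Chronic mice. In the second batch the Water mice ran from 38.2 to 44.4 CPM (median 43.1), the Acute mice had 35.2, 36.2, 36.9, 38.0 and 40.1 CPM, and the Chronic mice ran from 30.4 to 45.4 CPM (median 37.6). Every Acute mouse of the first batch was below every Water mouse, and the groups overlapped in the other comparisons, with 1 Chronic mouse of the second batch above all its Water mice. The log2 fold change was -0.21 ± 0.059 (95% interval -0.33 to -0.09) in Acute mice, where 9 of 9 mice were below the Water mean of their batch, and -0.19 ± 0.059 (-0.31 to -0.07) in Chronic mice, where 8 of 9 were. With GC and length offsets they were -0.13 and -0.11. Neither passed the threshold (edgeR, unadjusted p = 0.0014 and adjusted p = 0.384 for Acute, 0.0035 and 0.241 for Chronic). Chronic and Acute mice differed by 0.02 ± 0.061 (95% interval -0.10 to 0.14). An antisense gene that shares exon sequence with Kdm7a, 4930599N23Rik, had a mean of 1.89 counts against 824.6 for Kdm7a.

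Phf8 (ENSMUSG00000041229, chromosome X) had log2 fold changes of -0.03 in both drinking groups (edgeR, adjusted p = 0.803 and 0.741), and the batches differed in sign. In the first batch the Water mice lay close together at 34.9 ± 0.27 CPM (SD, n = 4) and the Chronic mice, at 31.7, 32.3 and 34.1 CPM, were all below them. In the second batch the fitted log2 fold changes were 0.01 in Acute and 0.0028 in Chronic mice, with means of 31.7 CPM in Water, 32.0 CPM in Acute and 31.8 CPM in Chronic mice. Phf2 (ENSMUSG00000038025, chromosome 13) had log2 fold changes of -0.06 ± 0.033 in Acute and -0.02 ± 0.033 in Chronic mice (adjusted p = 0.579 and 0.849). Its Acute mice of the first batch, from 50.6 to 52.2 CPM, were all below the Water mice, from 53.3 to 57.2 CPM, and in the second batch the groups overlapped. Phf2 shares exon sequence with the antisense gene Phf2os1, which had a mean of 20.1 counts against 1149 for Phf2.

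Taking the 9 genes other than Kdm3a, 0 passed the threshold on the adjusted p in Acute against Water, Chronic against Water or Chronic against Acute. Among all genes tested 0%, 0.0184% and 0% did (edgeR). At an unadjusted p under 0.05 the lower genes were Kdm3b and Kdm7a in Acute mice, 2 of 9 against 4.45% of all genes, and Kdm3b, Kdm4c and Kdm7a in Chronic mice, 3 of 9 against 5.65%. In Chronic against Acute it was Kdm4c, 1 of 9 against 2.5%. None of the 9 was higher at that level, against 5.07%, 4.81% and 1.95% of all genes in the 3 comparisons. DESeq2 with batch as a covariate, and DESeq2 after ComBat-seq, also called 0 of the 9 on the adjusted p.

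Values below 0 were found for 8 of the 9 genes in Acute and for 8 of 9 in Chronic mice, against 49.4% and 49.0% of all genes. The comparisons with Water share the Water mice, so these counts are not independent of each other. The median log2 fold change of the 9 was -0.03 in both, against 0.0011 and 0.0022 over all genes. In the first batch 2 of the 9, Kdm7a and Phf2, had every Acute mouse below every Water mouse (1.84% of all genes), and 2 of 9, Kdm4c and Phf8, had every Chronic mouse below (2.32%). In the second batch 0 of the 9 did so in either comparison, against 0.215% and 0.387% of all genes.

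**Figure D2:**
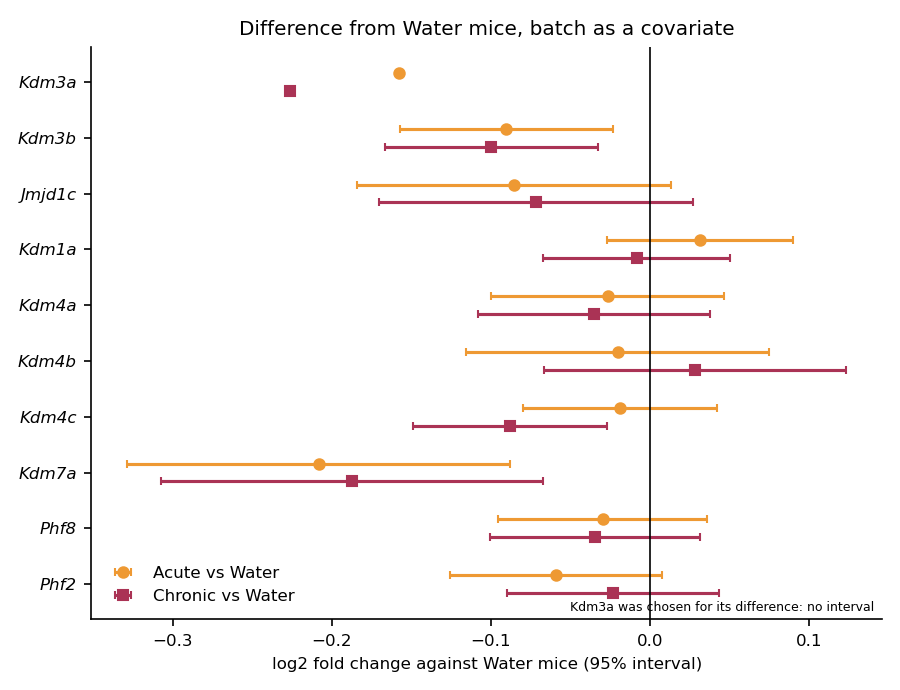
Log2 fold change (x axis) of each gene in Acute mice (circles) and Chronic mice (squares) against Water mice, with 95% intervals from the edgeR fit with batch as a covariate and no interval for Kdm3a, which was chosen for its difference. The intervals of Kdm3b and Kdm7a lie below 0 in both groups and that of Kdm4c in Chronic mice only, before adjustment over all genes.

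The slope on GC content differed from Water in Chronic mice, as given above, while in Acute mice the difference of 0.0181 did not pass the threshold (exact permutation p = 0.165, adjusted p = 0.247). GC content differed among the 10 genes, from 39.6% in Kdm7a, 43.2% in Jmjd1c and 43.7% in Kdm4c to 57.1% in Phf2 and 58.7% in Kdm4b (longest transcript). With offsets that take out each mouse's trend on both GC content and length, the log2 fold change of Kdm7a was -0.13 in place of -0.21 for the Acute group and -0.11 in place of -0.19 for the Chronic group. That of Jmjd1c was -0.02 in place of -0.09, and -0.0023 in place of -0.07. Kdm3a, with a GC content of 45.5%, was at -0.14 in place of -0.16 and at -0.19 in place of -0.23, and Kdm3b, with 53.1%, was at -0.07 in place of -0.09 and at -0.09 in place of -0.10. The value of Kdm4c in Chronic mice was -0.06 in place of -0.09. Phf8 was at -0.00074 in place of -0.03 in Acute mice and at -0.0054 in place of -0.03 in Chronic mice, and Kdm1a in Acute mice was at 0.0097 in place of 0.03. Away from 0 went the Chronic values of Kdm1a (-0.03 in place of -0.01), Kdm4a (-0.05 in place of -0.03) and Phf2 (-0.04 in place of -0.02).

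**Figure D3:**
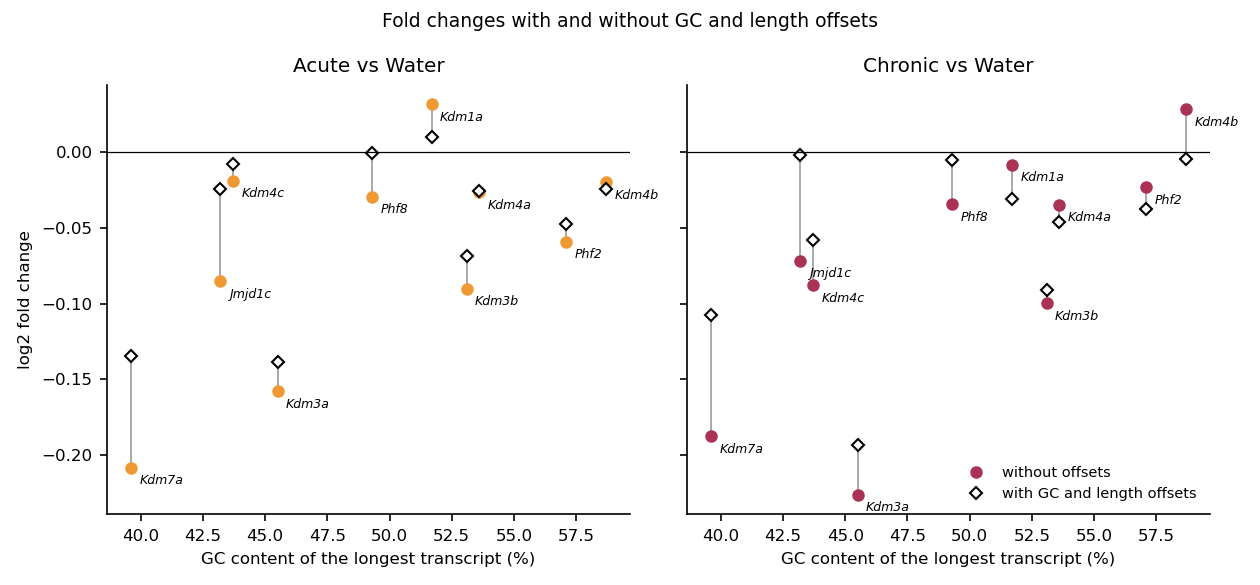
Log2 fold change against Water mice (y axis) by GC content of each gene's longest transcript in percent (x axis), for Acute mice (left) and Chronic mice (right), without (filled circles) and with (open diamonds) offsets for GC content and length. The low-GC genes Kdm7a and Jmjd1c moved toward 0 in both panels, and Kdm3a moved from -0.16 to -0.14 and from -0.23 to -0.19.

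Levels between genes were compared per length, as CPM per kb of merged exons in Water mice. Kdm4b (11.6 ± 1.5, SD, n = 10) and Kdm1a (11.5 ± 0.33) were highest, followed by Phf2 (10.3 ± 0.46) and Kdm4a (8.53 ± 0.79). A gap in the ranges followed, and Kdm3a (4.78 ± 0.21), Kdm4c (4.45 ± 0.16), Kdm7a (4.32 ± 0.32), Jmjd1c (3.76 ± 0.33), Phf8 (3.54 ± 0.23) and Kdm3b (3.52 ± 0.15) came last. Neighbours in this order overlapped between mice except Phf2 and Kdm4a, and Kdm4a and Kdm3a. The place of Kdm4b differed with batch, at 10.1 in the first, below Kdm1a (11.6) and level with Phf2 (10.1), and at 12.6 in the second. The order also rests on the length chosen. Over all 28 mice Kdm3a was at 4.4 CPM per kb of merged exons, at 7.46 per kb of its longest transcript and at 9.12 per kb of coding sequence, and Kdm1a was first by both of the latter. By coding sequence Kdm7a (14.1 ± 1.6, SD) lay near Kdm4a (15.2 ± 1.2), so the gap did not hold for that length.

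**Figure D4:**
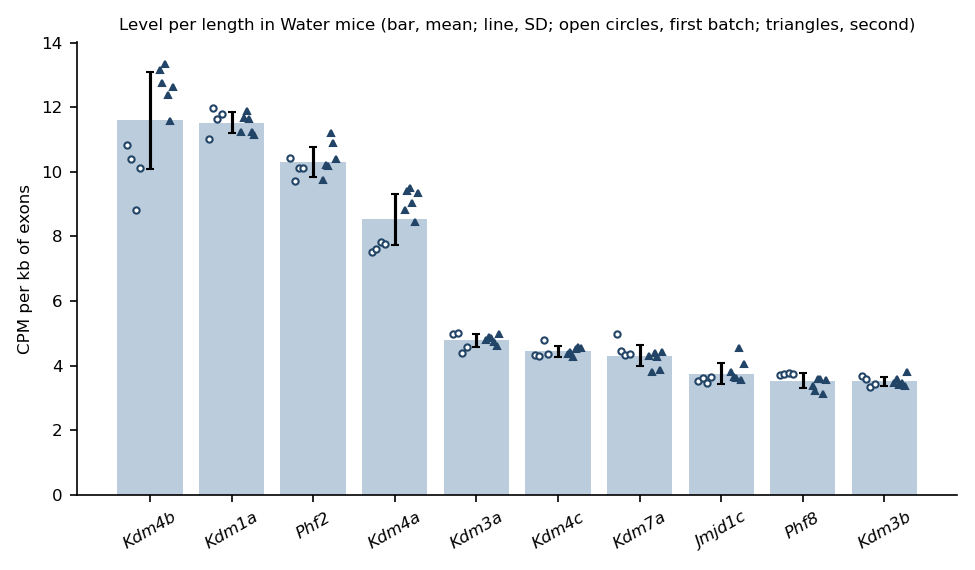
Level per length of the 10 genes in Water mice, in CPM per kb of merged exons (y axis, from 0), with bars for the mean of 10 mice, lines for the SD, open circles for the first batch and triangles for the second. Kdm4b, Kdm1a, Phf2 and Kdm4a lie at 7.51 or above in every mouse, and the other 6 genes at 5.001 or below.

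The spread between mice of 1 group within a batch was smallest for Kdm4c and Kdm1a (SD 0.06 log2) and largest for Kdm7a (0.14), followed by Jmjd1c and Kdm4b (0.11 each). Kdm3a had an SD of 0.07. For genes with a mean count within 1.5 times of that of Kdm7a the median SD was 0.09, and for those near Kdm4c it was 0.10, so Kdm7a was more and Kdm4c less variable than most genes of like depth.

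Across the 28 mice, with batch means removed, the demethylase most like Kdm3a was Kdm7a (Pearson's r = 0.648, Spearman's rho = 0.652, and r = 0.654 without the 2 mice farthest from the median of Kdm3a). Within the first and second batch r was 0.688 and 0.649. Kdm3b (r = 0.553), Kdm4c (0.469) and Jmjd1c (0.384) followed. These are descriptions, since all points share the group differences, and the libraries share normalisation and depth.

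With group means removed as well, so that only differences between mice of the same group and batch remain, Kdm4b came first (r = 0.639), then Kdm7a (0.444), and Kdm3b was at 0.143 and Kdm4c at 0.0405. Over the 45 pairs of demethylases the median r was 0.21 with batch means removed and 0.12 with group means removed too, with 34 and 30 pairs above 0. Jmjd1c and Phf2 stayed at 0.62 on both scales, and Kdm1a was below 0 with 8 of the other 9 genes on both.

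**Figure D5:**
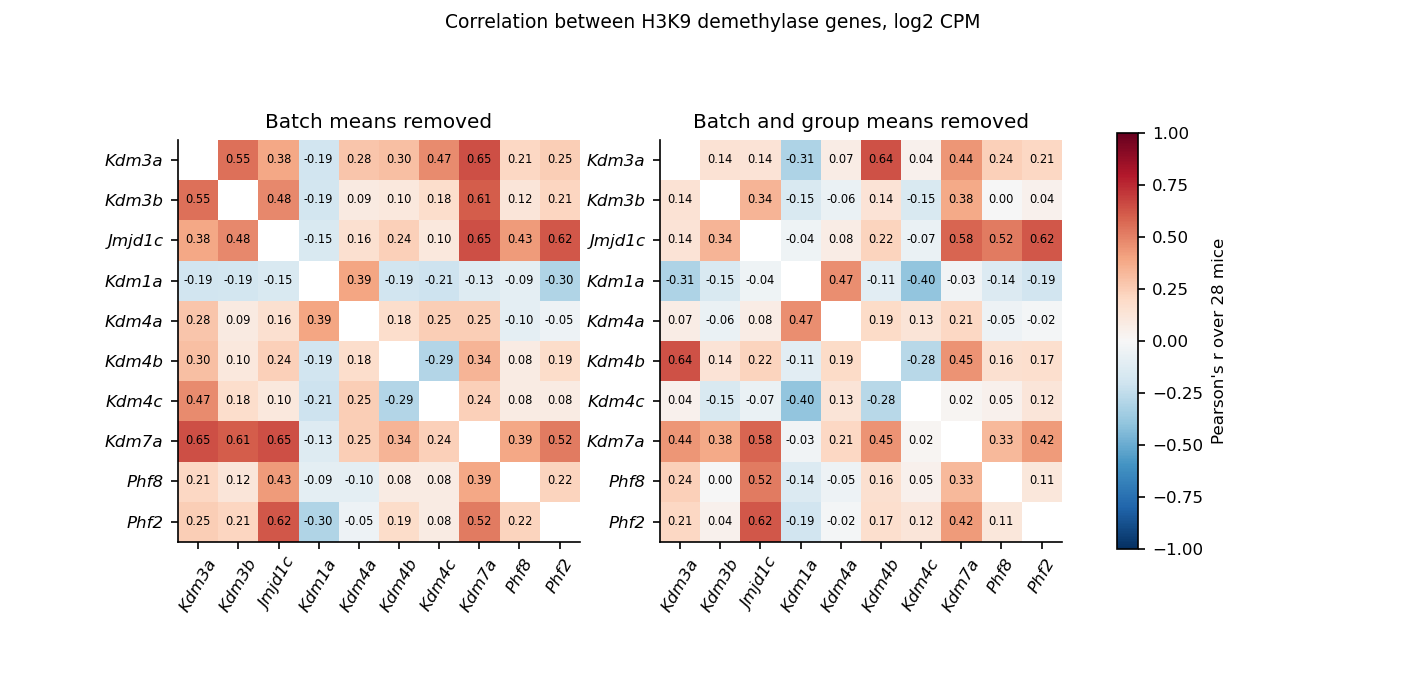
Pearson's r between the log2 CPM of each pair of the 10 genes over 28 mice, with batch means removed (left) and with batch and group means removed (right), from -1 in blue to 1 in red. Kdm3a and Kdm7a stand at 0.65 on the left and 0.44 on the right, and Kdm3a and Kdm4b at 0.30 and 0.64.

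Among all 16265 other genes tested, those whose course was most like that of Kdm3a with batch means removed were Ppp4r3a (r = 0.787), Tet3 (0.735), Osbpl8 (0.732), Chd1 (0.726) and Gm48550 (0.725), and those most opposed were Tmem25 (-0.748) and Efcab10 (-0.738), over 28 mice. With group means removed too, those near the top were Notch4 (0.741), Sncaip (0.715), Ppp4r3a (0.690) and Dpf2 (0.687), and the most opposed were Msmo1 (-0.745) and Ankmy2 (-0.686). Ppp4r3a was named on both scales. Kdm7a ranked above 99.8% of genes on the first scale and above 97.8% on the second.

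The neighbouring genes of the pathway gave no call on the adjusted p in the comparisons with Water, where hardly any gene did, so counts at an unadjusted p under 0.05 are also given for each list. Of 15 other histone lysine demethylases and related Jumonji proteins, most of them for sites other than H3K9 but with Kdm4d among them, 14 were tested and 0 rose or fell (edgeR), where 0% of all genes in Acute and 0.0184% in Chronic mice did. The 14 include the Y-linked Kdm5d, listed with a mean of 19.9 counts although all mice were female, so its counts are uncertain. At an unadjusted p under 0.05 there were 4 lower in Acute and 5 lower in Chronic mice and 0 higher, against 4.45% and 5.65% of all genes, with medians of -0.06 and -0.09. Kdm2a, an H3K36 demethylase, had log2 fold changes of -0.13 and -0.08 (adjusted p = 0.384 and 0.402), the H3K4 demethylase Kdm5b -0.09 and -0.10 (0.467 and 0.272), and the H3K27 demethylase Kdm6b -0.15 and -0.11 (0.467 and 0.506). Riox2 was at -0.04 and -0.15 (0.853 and 0.348).

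Of 11 H3K9 methyltransferases and partners, all tested, 0 rose or fell, against the same 0% and 0.0184% of all genes, and at an unadjusted p under 0.05 there was 1 lower and 0 higher in Acute mice and 1 lower and 1 higher in Chronic mice. For all genes that level was reached by 4.45% lower and 5.07% higher in Acute mice, and by 5.65% lower and 4.81% higher in Chronic mice. The paired enzymes Ehmt1 and Ehmt2, which write dimethylated H3K9, were at -0.08 and 0.05 in Acute and at -0.03 and 0.07 in Chronic mice, and Atf7ip, a partner of Setdb1, was at -0.06 and -0.08. Of 9 HP1 proteins and readers 0 rose or fell, and 1 was lower at the unadjusted level, in Chronic mice, with Cbx5 at -0.02 and -0.07. In the CoREST complex of Kdm1a, 0 of 15 rose or fell, against 0% and 0.0184% of all genes, and at the unadjusted level 2 were lower and 1 higher in Acute mice and 1 lower and 1 higher in Chronic mice. Its deacetylase Hdac2 was at -0.0004 in Acute and -0.10 in Chronic mice (adjusted p = 0.222), its scaffold Rcor1 at -0.12 and -0.09, Zmym3 at -0.06 and -0.04, and the corepressor Ctbp1 at 0.06 in both.

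In the HIF pathway, which regulates Kdm3a in low oxygen, 0 of 23 genes rose or fell, against 0% and 0.0184% of all genes, 1 was lower at the unadjusted level in Acute mice and 0 in Chronic mice, against 4.45% and 5.65% of all genes, and the medians were -0.00082 and -0.01. Arnt, the shared HIF partner, was at -0.10 in Acute mice (adjusted p = 0.513) and at -0.07 in Chronic mice. In the list for iron and 2-oxoglutarate, the cofactors of Jumonji enzymes, 13 of 14 genes were tested and 0 rose or fell, against 0% and 0.0184%, with 2 higher in Acute and 1 higher in Chronic mice at the unadjusted level, against 5.07% and 4.81% of all genes. There the ferritin light chain Ftl1 was at 0.04 and 0.09, and the citrate cycle enzymes Idh3a and Ogdh were at 0.05 and 0.06 in Acute mice and at 0.04 and -0.01 in Chronic mice.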

How the data were processed

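Amygdala RNA of 28 mice, in 2 batches, was read from both ends of each fragment. The authors quantified reads by transcript and deposited whole-number counts per gene and mouse, 1 table a batch, before batch adjustment (Salmon 0.14.1 and FastQC 0.11.8 per the submitters' processing notes, GRCm38). Groups and batches follow the labels, and no column was left out (0 unused). Tables were joined on the Ensembl identifier, with names from GENCODE M21. Genes averaging 10 counts or more were tested with edgeR 4.0.16 (TMM, quasi-likelihood, 2-sided, batch as a covariate, all groups in 1 fit, R 4.3.3), with Benjamini-Hochberg adjustment over all genes and a threshold of 0.05. Log2 CPM used a prior count of 2. Exact permutation tests regrouped mice within batches. Fits were tested on simulated data.

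The 10 genes and all lists were chosen with earlier results of these data known. Named genes are the 10, genes of the 6 pathway lists at an unadjusted p under 0.05 with the same sign in both batches (at most 4 a list), and the 5 genes closest to and 2 most opposed to Kdm3a on each scale, of which 1 is not reported here. Replicate numbers are shared in the second batch only. Over 16 same-numbered pairs the deviations from group means correlated from -0.346 to 0.338, with no common sign. Low correlation cannot exclude that the numbers pair the mice, so batch alone was the main covariate and a replicate block an alternative. Alternatives used DESeq2 1.42.0 and ComBat-seq (sva 3.50.0), RLE size factors, other filters, a replicate block, GC and length offsets (splines with 5 df), single batches and fits without each mouse. Labels do not say that mice came from separate litters, and intervals cover the spread between these mice.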

Additional observations from a re-analysis of the deposited data

Results flagged for a closer look

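Of 30 combinations of a demethylase and a drinking group, 1 had a mouse far from the others. Jmjd1c in Water mice was highest in mouse 4 of the second batch, at 81.3 CPM, and its gap to the next mouse was 0.473 of the group's whole range on the batch-centred log2 scale. Chance alone marks about 1 in 20 such groups. Without that mouse the log2 fold change of Jmjd1c was -0.05 in Acute and -0.04 in Chronic mice.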

How the results depend on the processing

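For the 9 genes other than Kdm3a, 1026 values under alternatives were compared with the reported ones. None passed the threshold (lowest adjusted p = 0.0806, Kdm7a in Chronic mice, ComBat-seq then DESeq2), and 36 changed sign, all with reported values between -0.07 and 0.04. In single batches these were, in Acute mice, Kdm4a 0.0338 and Kdm4c 0.00404 (first) and Phf8 0.014 (second), in Chronic mice, Jmjd1c 0.0216 and Kdm4a 0.00395 (first) and Kdm1a 0.0121 and Phf8 0.00277 (second), and in Chronic against Acute, Kdm3b 0.0177 (first), Jmjd1c -0.0298, Kdm4a 0.0108, Kdm7a -0.0273 and Phf2 -0.00892 (second). Kdm4b in Chronic mice was -0.00435 with GC and length offsets and -0.00605 with the replicate block and those offsets. Leaving out 1 mouse at a time changed the sign of Kdm4b in Acute mice (-0.0434 to 0.00214), Kdm1a in Chronic mice (-0.0169 to 0.00543), and, in Chronic against Acute, Kdm3b (-0.0209 to 0.00762), Jmjd1c (-0.0124 to 0.0452), Kdm4a (-0.0272 to 0.0129), Kdm7a (-0.0161 to 0.0517) and Phf8 (-0.0185 to 0.00663). The cause was not tested.

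Kdm3a without each mouse in turn lay between -0.177 and -0.142 for the Acute and between -0.243 and -0.211 for the Chronic group. In Chronic mice it was -0.14 in the first batch alone, and its level per length was 7.46 with the longest transcript and 9.12 with the coding length. With the replicate block Kdm3a was -0.154 and -0.227, 0 of the other 9 were called, and calls over all genes in Chronic mice stayed at 3. Over all genes, Acute against Water gave 0 calls (1549 genes at an unadjusted p under 0.05), but 1 with no filter, 8 with DESeq2 and 30 with ComBat-seq then DESeq2, and Chronic against Water gave 3, but 36 and 98 with these, 1 with the block and offsets and 0 in the first batch. Offsets left 1130 and 1035 genes at an unadjusted p under 0.05 in place of 1549 and 1702. The 10 genes average 523.6 to 1336 counts per mouse, so counting error and the spread between mice both limit precision. No member was in 1 table only, so the fit for such genes was not run.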
